A study of Mus musculus with 2 samples.

Results

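The apoptosis and cell-death regulators described here are 40 genes of the BCL2, caspase, inhibitor of apoptosis and cell-death families, taken by gene name from the 34745 genes of the deposited expression table. All 40 names were found, each as 1 entry. They were measured in M-MDSCs, monocytic myeloid-derived suppressor cells, a population of immature myeloid cells that restrains T cells. Bone marrow cells came from C57BL/6 mice aged 6 to 8 weeks, and culture lasted 7 days. Both groups received 50 ng/ml GM-CSF. The CHBP- group received nothing else, and the CHBP+ group also received CHBP, a cyclic helix B peptide derived from erythropoietin. In the labels the CHBP- library has the strain C57BL/6 and the CHBP+ library C57BL/7, whereas the methods name C57BL/6 for the wild-type cultures. The methods and results give the CHBP dose in different units and the labels give none. Red blood cells were lysed before culture. M-MDSCs were sorted as CD11b+Ly6G-Ly6Chigh cells, and RNA of each group was sequenced as 1 library. Whether bone marrow of several mice was pooled is not stated. With 1 library per group there is no spread between replicates, no test between the conditions was possible, and the peptide cannot be told apart from any other difference between the libraries.

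The counts summed to 16484504 reads in CHBP- and 16280466 in CHBP+ M-MDSCs. Levels are given as FPKM, in which a read count is divided by the length of its gene and by the total of its library. The log2 ratio is the log2 of FPKM + 1 in CHBP+ divided by FPKM + 1 in CHBP-, and the added 1 shrinks the difference of genes with low FPKM. The 10948 genes with at least 1 FPKM in a library were kept, and they had a median log2 ratio of -0.03. Intervals are exact 95% Clopper-Pearson intervals from the reads and cover counting error only. Among markers of the sorted population, Itgam (CD11b) had 2 entries at 157 and 100 FPKM in CHBP- and 232 and 153 FPKM in CHBP+ M-MDSCs. Ly6c2 had 4091 and 2411 reads and was lower in CHBP+, with a log2 ratio of -0.73 (interval -0.80 to -0.66). Ly6g had 46 and 44 reads. The 4 T cell markers stayed at or below 1.11 FPKM. The summed FPKM of 8 neutrophil markers was 2012 in CHBP- and 1452 in CHBP+. Most of it was S100a8, 576 and 391, and S100a9, 1269 and 937. Ngp, Elane and Mpo were also lower in CHBP+. Ly6g, Camp and Ltf had at most 2.19 FPKM and log2 ratios of -0.03, -0.22 and 0.05. The sum was 1283 and 586 for 5 erythroid markers, 283 and 232 for 5 mast cell and basophil markers, and 39.7 and 26.1 for 4 B cell markers. For 4 eosinophil markers it was 115 and 84.7. The sums were higher in CHBP+ for 8 monocytic markers, 674 and 772, and for 6 macrophage and dendritic cell markers, 389 and 423. The monocytic sum holds both Itgam entries, and without them it was lower in CHBP+. Of its 9 entries, 5 had a log2 ratio above 0, and 4, those of Ly6c1, Ly6c2, Cd14 and Fcgr1, below 0. Ms4a2 of the mast cell list had a log2 ratio of 1.04. In such bulk RNA, fewer cells of a type and less RNA per cell cannot be told apart.

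Apoptosis through mitochondria is decided by the BCL2 family. Anti-apoptotic members such as MCL1, A1 and BCL-XL hold back the pore-forming effectors BAX and BAK, and BH3-only proteins such as BIM and NOXA release that brake. Cytochrome c then joins APAF1 to activate caspase-9, while death receptors activate caspase-8 through FADD, and inhibitor of apoptosis proteins (IAPs) and cFLIP restrain these caspases. Necroptosis, through RIPK3 and MLKL, and pyroptosis, through inflammasomes, caspase-1 and gasdermin D, are lytic deaths. Mature neutrophils and monocytes are short-lived cells for which GM-CSF is a survival factor, and neutrophils depend on MCL1.

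Of the 40 genes, 37 reached 1 FPKM in a library. The 3 others were Bok, a BAX-like effector, and Hrk, a BH3-only gene, with no read in either library, and Bik, also BH3-only, with no read in CHBP- and 2 reads in CHBP+ M-MDSCs. A count of 0 allows up to 0.182 CPM (reads scaled to the counted total alone) in CHBP- and 0.184 CPM in CHBP+, the level of 3 reads.

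Among the 37 genes, 3 were at least 1.5-fold higher in CHBP+ M-MDSCs (8.11%, against 3.42% of all genes kept) and 3 were at least 1.5-fold lower (8.11%, against 2.89%). Those higher were Birc6, Apaf1 and Bcl2l2, and those lower were Bcl2l1, Xiap and Bax. Both directions held genes that restrain and genes that promote death. The counting interval lay above 0 for 7 genes (18.9%, against 27.9% of all genes kept), below 0 for 18 (48.6%, against 31.0%) and across 0 for 12. The median log2 ratio was -0.10 for the 37 genes, 0.02 for the 12 on the anti-apoptotic side, -0.12 for 18 on the pro-apoptotic side and -0.10 for the 7 of lytic death and the inflammasome. The summed FPKM of the anti-apoptotic side was 1120 in CHBP- and 917 in CHBP+ M-MDSCs, and that of the pro-apoptotic side 234 and 195, or 0.818 and 0.833 times as high in CHBP+.

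**Figure D1:**
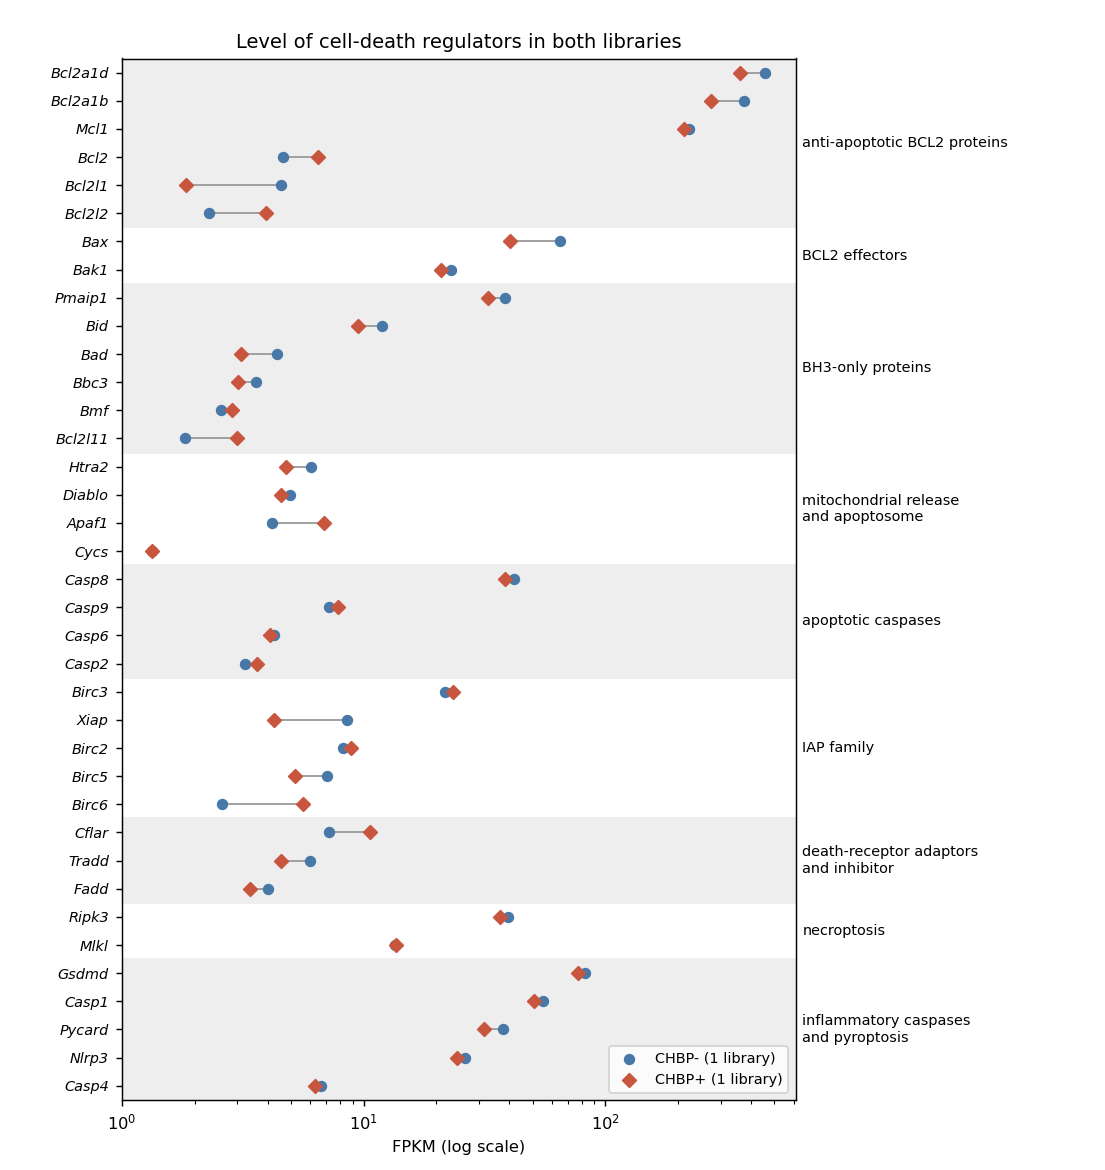
FPKM (log scale) of the 37 genes with at least 1 FPKM, in CHBP- M-MDSCs (blue circles) and CHBP+ M-MDSCs (red diamonds), 1 library each, grouped by role with a line joining both values. Bcl2a1d, Bcl2a1b and Mcl1 lie above all others in both libraries, Mcl1 at 221 and 212 FPKM, and the widest gaps are those of Bcl2l1, Birc6 and Xiap.

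The log2 ratio moved with gene length. Over the 10948 genes kept, the log2 ratio had a Spearman's correlation of 0.48 with the length that the deposited FPKM imply. The median log2 ratio was -0.30 in the shortest 10% of genes and 0.23 in the longest 10%. Over the 37 cell-death genes, the correlation was 0.54. Genes share both libraries and are not replicates, so these are descriptions. Of 23 cell-death genes of at most 7000 bases, 20 had a log2 ratio below 0, and of 14 longer ones 4 did, against 65.5% and 29.8% of all genes kept in those length ranges. Values with this trend subtracted are given for the genes past the 1.5-fold threshold, for those whose sign they change and for some others, from a polynomial fitted over all genes kept in either the implied length or the length of the longest GENCODE M1 transcript. The correlation with transcript length was 0.66 over 10508 genes and 0.60 over 36 cell-death genes.

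With the trend in implied length subtracted, no cell-death gene was at least 1.5-fold higher (2.85% of all genes were) and 2 were at least 1.5-fold lower (1.53% of all genes were). With the trend in transcript length subtracted, the counts were again 0 and 2, against 2.18% and 1.06% of all genes. Bcl2l1 and Xiap were both genes in both cases. Birc6, Apaf1, Bcl2l2 and Bax lost the 1.5-fold difference. Whether the trend came from the peptide, the RNA or the library preparation was not tested.

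**Figure D2:**
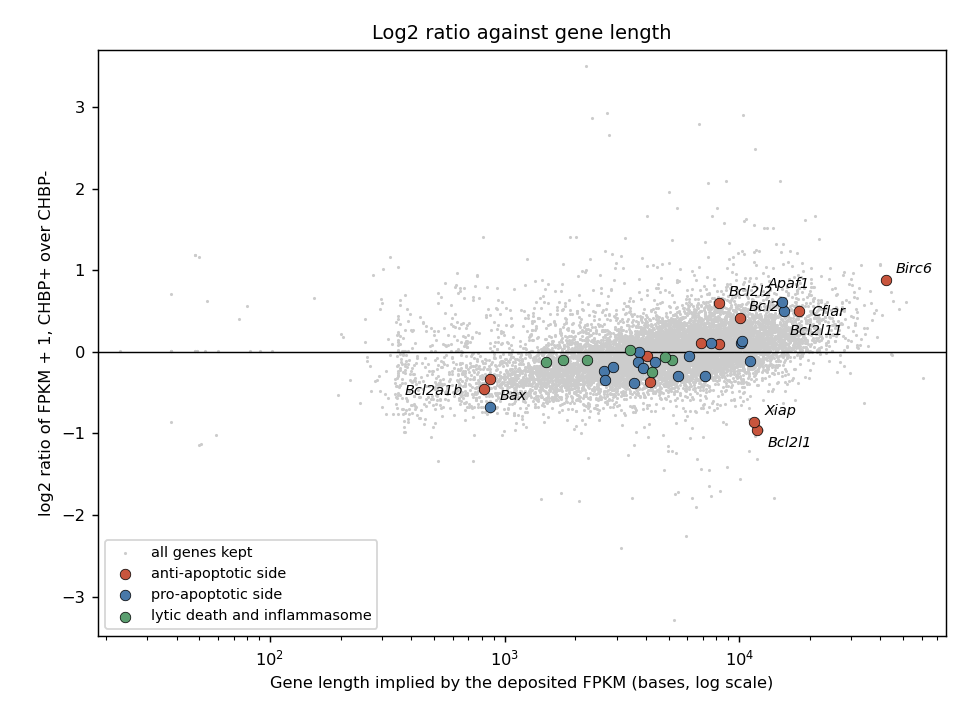
Log2 ratio of FPKM + 1 (CHBP+ over CHBP-) against the gene length implied by the deposited FPKM (log scale), for all 10948 genes kept (grey) and the 37 cell-death genes, coloured by side. Birc6, Cflar, Bcl2l11 and Apaf1 are long and high, Bax and Bcl2a1b short and low, whereas Xiap and Bcl2l1 are long and low.

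The anti-apoptotic BCL2 genes spanned a wide range of levels and differed in both directions. Bcl2a1d, Bcl2a1b and Mcl1 made up nearly all of their message. Of the summed FPKM of the 6 genes, Bcl2a1d held 42.9% in CHBP- and 42.1% in CHBP+, Bcl2a1b 35.3% and 31.7%, and Mcl1 20.7% and 24.7%. By FPKM, each of the other 3 stayed below 1% in both libraries. These shares depend on gene length. For Bcl2l1 the implied length is 11905 bases, whereas its longest GENCODE M1 transcript has 2417, with which its share would be larger.

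Bcl2l1 encodes BCL-XL, which guards the mitochondrial membrane and is known for its part in the survival of maturing erythroid cells. The gene (ENSMUSG00000007659) spans positions 152780668 to 152831728 of chromosome 2 (GRCm38). It had 893 reads in CHBP- and 358 in CHBP+ M-MDSCs, or 4.55 and 1.85 FPKM. Its level was thus much lower in CHBP+, with a log2 ratio of -0.96 (interval -1.09 to -0.84). Scaled to the totals, its reads in CHBP+ were 0.406 times those in CHBP- (interval 0.358 to 0.459). Among all genes kept, 51 had a log2 ratio as low or lower. With the trend subtracted it was -1.13 by implied length and -0.87 by transcript length. It overlaps no other gene that had 10 or more reads. Erythroid markers were also lower, with 20238 and 5989 reads for Hbb-bs, a haemoglobin chain. The part of erythroid RNA in the difference of Bcl2l1 was not tested.

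Bcl2, the founding member of the family, ran the other way. It spans positions 106538178 to 106714274 of chromosome 1 and had 767 reads in CHBP- and 1061 in CHBP+, or 4.64 and 6.50 FPKM. The higher level in CHBP+ gave a log2 ratio of 0.41 (interval 0.30 to 0.53), which was 0.29 and 0.09 with the trend in implied and in transcript length subtracted. Within CHBP- M-MDSCs the FPKM of Bcl2 was 1.02 times that of Bcl2l1, and within CHBP+ M-MDSCs it was 3.52 times. These ratios rest on implied lengths of 10032 bases for Bcl2 and 11905 for Bcl2l1. Their longest GENCODE M1 transcripts have 7191 and 2417 bases, so which gene was the more abundant depends on the length used. The change of the ratio between the libraries does not.

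Bcl2l2 encodes BCL-W, a close relative of BCL-XL. It had 311 reads in CHBP- and 531 in CHBP+, or 2.29 and 3.96 FPKM, with a log2 ratio of 0.59 (interval 0.44 to 0.74) just past the 1.5-fold threshold. With the trend subtracted it was 0.51 by implied length and 0.52 by transcript length. Gm20521 overlaps it on chromosome 14 and had 225 and 185 reads, so reads of either gene could have been counted to the other or to neither. Both together had 536 and 716 reads, 1.35 times as many in CHBP+ after scaling.

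Mcl1, which encodes a short-lived anti-apoptotic protein, had 14658 reads in CHBP- and 13911 in CHBP+, or 221 and 212 FPKM. Its high count made the interval of its log2 ratio of -0.06 narrow, from -0.09 to -0.02. Both libraries held it at nearly the same level, and the value was 0.00 and -0.08 with the trend in implied and in transcript length subtracted.

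The A1 genes Bcl2a1b and Bcl2a1d encode a BCL2 relative of haematopoietic cells that NF-kappaB induces. Bcl2a1b had 5060 reads in CHBP- and 3624 in CHBP+, or 376 and 272 FPKM, with a log2 ratio of -0.46 (interval -0.52 to -0.40). Bcl2a1d had 6498 and 5081 reads, or 457 and 362 FPKM, with a log2 ratio of -0.34 (interval -0.39 to -0.28). Both were lower in CHBP+ M-MDSCs. They are also among the shortest of the 37 genes, and with the trend in implied length subtracted the values were -0.22 and -0.10.

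The A1 genes are near-identical copies on chromosome 9, which limits what their separate counts mean. The coding sequences of Bcl2a1a, Bcl2a1b and Bcl2a1d in GENCODE M1 have 519 bases each, and 12 of these positions differ among the 3 genes. Bcl2a1b and Bcl2a1d differ at 6 positions, an identity of 98.8%. The first 90 coding bases hold 6 of the 12 positions and are shown as a stretch dense in such positions, with capitals where any of the 3 genes differs. The other 6 positions lie outside it.
Bcl2a1a: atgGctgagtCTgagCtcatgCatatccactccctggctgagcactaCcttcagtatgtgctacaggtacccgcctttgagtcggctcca
Bcl2a1b: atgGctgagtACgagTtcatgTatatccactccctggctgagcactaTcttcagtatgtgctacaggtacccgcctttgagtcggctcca
Bcl2a1d: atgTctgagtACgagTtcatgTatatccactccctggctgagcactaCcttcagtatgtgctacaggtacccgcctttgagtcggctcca

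Of all stretches of 75 bases, the read length, 43.3% of those in the Bcl2a1b transcript and 71.4% of those in the Bcl2a1d transcript also occur in another of the 3 transcripts. Bcl2a1a, which is not among the 40 genes, had 2143 and 1565 reads. The 3 genes together had 13701 reads in CHBP- and 10270 in CHBP+, and after scaling 0.759 times as many in CHBP+ (interval 0.740 to 0.779). The sum does not depend on how counted reads were divided among the 3 copies, but reads left out for matching several copies would be missing from it. Of the 8 neutrophil markers, 7 had a log2 ratio below 0 and 1 above, with a median of -0.29, or -0.09 with the trend in implied length subtracted, and of the 9 entries of monocytic markers 5 were above 0. The part of other cells in the A1 values was not tested.

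The effectors were lower in CHBP+ M-MDSCs, by different amounts. Bax, which makes pores in the outer mitochondrial membrane, had 931 reads in CHBP- and 570 in CHBP+, or 65.0 and 40.3 FPKM. It spans positions 45461695 to 45466898 of chromosome 7, and its log2 ratio was -0.68 (interval -0.83 to -0.53). Its message is short, and with the trend subtracted the value was -0.44 by implied length and -0.40 by transcript length, no longer 1.5-fold. Bak1, the second effector, had 1658 and 1500 reads, or 22.9 and 21.0 FPKM, with a log2 ratio of -0.12 (interval -0.22 to -0.02), or -0.08 and -0.03 with the trend in implied and in transcript length subtracted. Ggnbp1, which overlaps Bak1 on chromosome 17, had 494 reads in CHBP- and 56 in CHBP+. Reads of either gene could have been counted to the other or to neither. Both together had 2152 and 1556 reads, 0.732 times as many in CHBP+ after scaling, against 0.916 times for Bak1 alone. How far Bak1 differed thus depends on how overlapping reads were counted. The FPKM of Bax was 14.3 times that of Bcl2l1 in CHBP- and 21.8 times in CHBP+. The size of these ratios rests on implied lengths of 869 bases for Bax and 11905 for Bcl2l1. The longest GENCODE M1 transcript of Bcl2l1 has 2417 bases, with which the ratios would be smaller.

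None of the 6 BH3-only genes kept was 1.5-fold apart. Pmaip1, which encodes NOXA, an antagonist of MCL1 and A1, was the most abundant, with 1683 and 1404 reads, or 38.6 FPKM in CHBP- and 32.6 in CHBP+. Its log2 ratio was -0.24 (interval -0.34 to -0.14). Bid, which links caspase-8 to mitochondria, had 1071 and 842 reads, or 11.9 and 9.47 FPKM, with a log2 ratio of -0.30 (interval -0.42 to -0.18). Bcl2l13, which overlaps the end of Bid on chromosome 6, had 1380 and 1580 reads, and both genes together had 2451 and 2422 reads, 1.00 times as many in CHBP+.

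Bcl2l11, which encodes BIM, the BH3-only protein that removes myeloid cells when growth factor is withdrawn, was the highest of the BH3-only genes in log2 ratio. It had 468 reads in CHBP- and 755 in CHBP+, or 1.83 and 2.99 FPKM. The log2 ratio was 0.50 (interval 0.38 to 0.61), and 0.26 and 0.33 with the trend in implied and in transcript length subtracted. The pseudocount holds this low gene under the threshold, since its reads in CHBP+ were 1.63 times those in CHBP- (interval 1.45 to 1.84) after scaling.

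The other 3 BH3-only genes were low. Bad, a BH3-only protein that growth-factor signalling silences, had 258 and 181 reads, or 4.37 and 3.11 FPKM, with a log2 ratio of -0.39 (interval -0.61 to -0.17), and it overlaps Gpr137. Subtracting the trend gave -0.31 for Bad by implied and -0.17 by transcript length. Bbc3, which encodes PUMA, a target of p53, had 171 and 142 reads and a log2 ratio of -0.19 (interval -0.44 to 0.06). Bmf, a BH3-only protein tied to the cytoskeleton, had 432 and 470 reads and a log2 ratio of 0.10 (interval -0.04 to 0.24), which was -0.03 with either trend subtracted. For Bbc3 and Bmf a difference was not detectable at this depth.

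Apaf1 stood apart among the genes of the apoptosome and of mitochondrial release. APAF1 is the scaffold on which caspase-9 is activated. The gene spans positions 90989311 to 91082770 of chromosome 10 and had 1044 reads in CHBP- and 1701 in CHBP+, or 4.16 and 6.86 FPKM. The level was higher in CHBP+, with a log2 ratio of 0.61 (interval 0.51 to 0.70). With the trend subtracted it was 0.38 by implied length and 0.33 by transcript length. Its partner Cycs, cytochrome c, had 82 and 81 reads and a log2 ratio of 0.00 (interval -0.26 to 0.26). At 1.33 FPKM in both libraries Cycs was the lowest of the 37 genes. How reads that match several places were counted is not stated, so its level may be too low. Htra2, a protease released from mitochondria, had 712 and 552 reads with a log2 ratio of -0.29 (interval -0.43 to -0.16), and Aup1, which overlaps it, had 1660 and 1289 reads. Diablo, whose product SMAC displaces IAPs from caspases, had 912 and 823 reads with a log2 ratio of -0.11 (interval -0.22 to 0.01).

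The apoptotic caspases differed little. Casp8, the caspase of death receptors, was the most abundant, with 2571 and 2332 reads, or 42.0 FPKM in CHBP- and 38.5 in CHBP+, and a log2 ratio of -0.12 (interval -0.20 to -0.04). Casp9, the caspase of the apoptosome, had 896 and 966 reads with a log2 ratio of 0.11 (interval -0.01 to 0.23). Casp2, an initiator linked to DNA damage, had 549 and 609 reads with a log2 ratio of 0.13, and Casp6, an executioner, had 428 and 405 reads with a log2 ratio of -0.05. The intervals of Casp2, Casp6 and Casp9 held 0. After the trend was subtracted Casp2 was 0.00 by implied and 0.10 by transcript length, and Casp6 was -0.07 and 0.17.

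The IAP family held the highest value of the 37 genes and the second lowest. Xiap encodes the IAP that binds and blocks caspases directly, among them caspase-9. It spans positions 42059679 to 42109656 of chromosome X and had 1626 reads in CHBP- and 801 in CHBP+, or 8.52 and 4.25 FPKM. The lower level in CHBP+ gave a log2 ratio of -0.86 (interval -0.96 to -0.76), and its reads were 0.499 times as many (interval 0.458 to 0.543). With the trend subtracted, the value was -1.02 by implied length and -1.15 by transcript length. By transcript length, 26 of 10508 genes had a value as low or lower. Like Bcl2l1, it overlaps no other gene that had 10 or more reads. The FPKM of Xiap was 1.19 times that of Casp9 in CHBP- and 0.543 times in CHBP+.

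Birc6 encodes BRUCE, a very large protein that is both an IAP and a ubiquitin-conjugating enzyme. The gene spans positions 74528295 to 74703356 of chromosome 17, and its implied length of 42335 bases is the longest of the 37. It had 1809 reads in CHBP- and 3865 in CHBP+, or 2.59 and 5.61 FPKM. The level was higher in CHBP+, with a log2 ratio of 0.88 (interval 0.82 to 0.94) and 2.16 times the reads (interval 2.05 to 2.29). With the trend subtracted it was 0.38 by implied length and 0.14 by transcript length. The FPKM of Birc6 was 0.304 times that of Xiap in CHBP- and 1.32 times in CHBP+, a reversal of their order by FPKM. The size of these ratios rests on implied lengths of 42335 bases for Birc6 and 11578 for Xiap. Their longest GENCODE M1 transcripts have 16212 and 6834 bases, with which the ratios would be larger. The length trend is not subtracted from these ratios.

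Birc2 and Birc3 encode cIAP1 and cIAP2, ubiquitin ligases of TNF receptor signalling. Birc3 had 2470 and 2636 reads, or 21.7 FPKM in CHBP- and 23.5 in CHBP+, with a log2 ratio of 0.11 (interval 0.03 to 0.18). Birc2 had 1109 and 1182 reads with a log2 ratio of 0.10 (interval -0.01 to 0.21). Birc5 encodes survivin, which acts in mitosis with Aurora B, borealin and INCENP as well as in survival. It had 484 and 354 reads, or 7.04 and 5.21 FPKM, and was lower in CHBP+ with a log2 ratio of -0.37 (interval -0.54 to -0.20). Of 15 other genes of cell division, 12 had a log2 ratio below 0 and 3 above, with a median of -0.20 and none 1.5-fold apart. Among the partners of survivin, Aurkb had a log2 ratio of -0.34, Cdca8, which encodes borealin, -0.34 and Incenp -0.01, while Mki67, a marker of proliferation, had 0.58. The part of a different share of dividing cells in the value of Birc5 was not tested.

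Cflar encodes cFLIP, which blocks caspase-8 at death receptors. It had 2129 reads in CHBP- and 3108 in CHBP+, or 7.19 and 10.6 FPKM, and a log2 ratio of 0.51 (interval 0.43 to 0.58). It was thus higher in CHBP+, below the 1.5-fold threshold, and 0.24 and 0.23 with the trend in implied and in transcript length subtracted. Its partner Fadd, the adaptor that recruits caspase-8, had 259 and 215 reads and a log2 ratio of -0.20 (interval -0.41 to 0.01). Tradd, the adaptor of TNF receptor 1, had 267 and 199 reads and a log2 ratio of -0.34 (interval -0.57 to -0.11), or -0.22 and -0.15 with the trend in implied and in transcript length subtracted.

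For each of the 7 genes of necroptosis and pyroptosis the level was similar in both libraries, while the genes ranged from 82.6 FPKM for Gsdmd to 6.63 FPKM for Casp4 in CHBP-. Gsdmd, the pore-forming gasdermin D, had 2418 and 2227 reads, or 82.6 FPKM in CHBP- and 77.0 in CHBP+, with a log2 ratio of -0.10 (interval -0.18 to -0.02). Casp1, the inflammasome caspase, had 55.4 and 50.8 FPKM and a log2 ratio of -0.12 (interval -0.23 to -0.01). Nlrp3, the inflammasome sensor, had 26.1 and 24.4 FPKM and a log2 ratio of -0.09 (interval -0.18 to -0.01).

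Pycard, the adaptor ASC that joins sensor and caspase, had the lowest log2 ratio of the 7, -0.25 (interval -0.33 to -0.17), from 2638 and 2176 reads, or 37.8 and 31.6 FPKM. It was -0.20 and -0.03 with the trend in implied and in transcript length subtracted. Casp4, the sensor of cytosolic lipopolysaccharide, had 530 and 498 reads and a log2 ratio of -0.06 (interval -0.22 to 0.09). Ripk3, the kinase of necroptosis, had 39.5 and 36.8 FPKM and a log2 ratio of -0.10 (interval -0.20 to 0.01), and Mlkl, its pore-forming substrate, had 13.5 and 13.6 FPKM and a log2 ratio of 0.02 (interval -0.12 to 0.16). None of the 7 was 1.5-fold apart. With the trend in implied length subtracted their median went from -0.10 to 0.05, and by both lengths the values turned positive for Casp1 (0.07 and 0.09), Gsdmd (0.08 and 0.07) and Ripk3 (0.05 by each). Casp4 turned positive by transcript length alone (0.10).

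**Figure D3:**
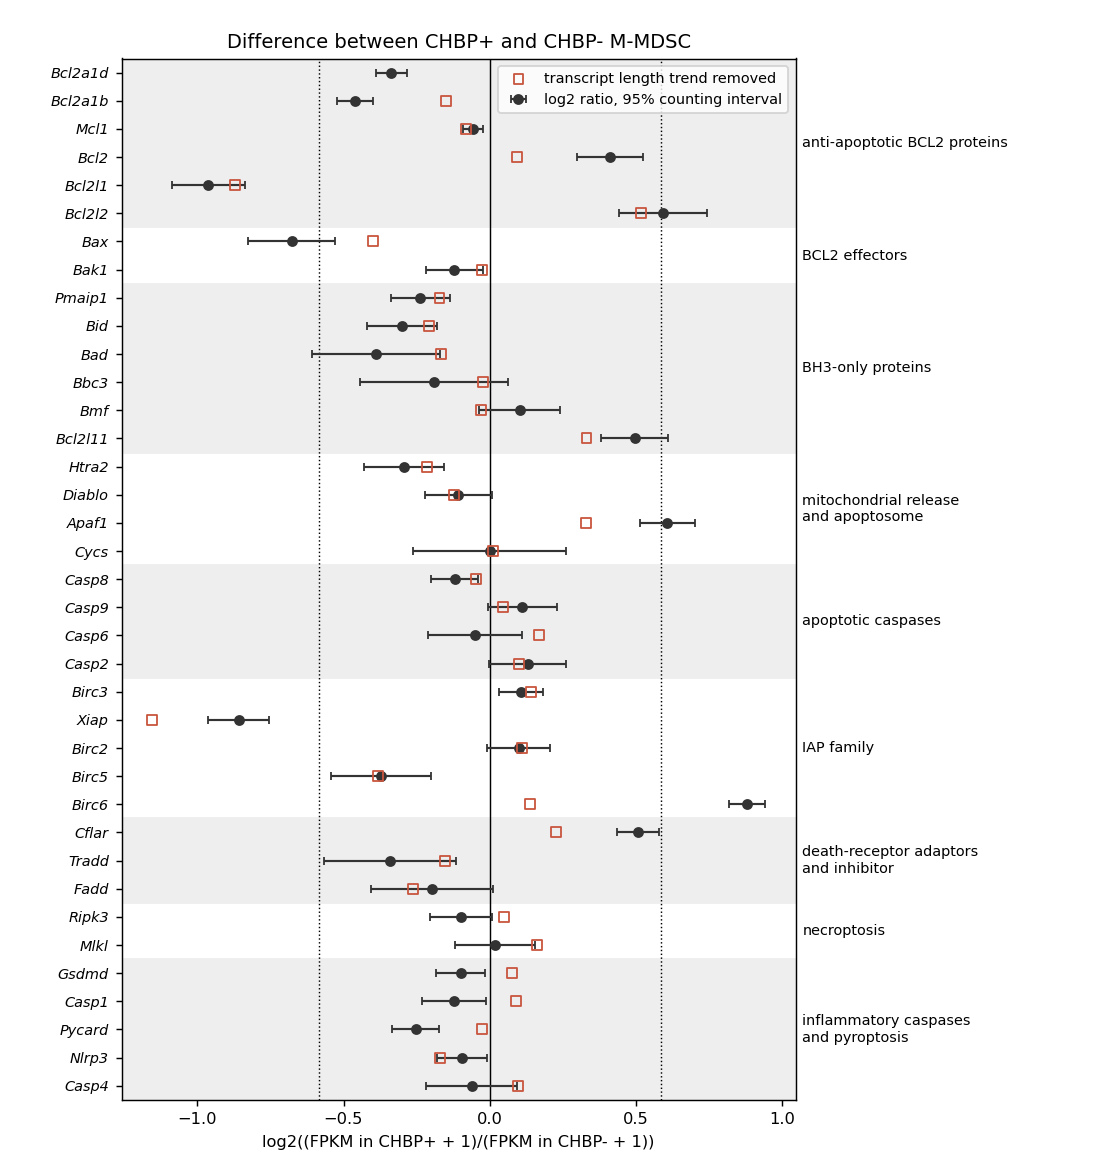
Log2 ratio (CHBP+ over CHBP-) of the 37 genes by role, as black points with exact 95% counting intervals, and with the transcript length trend subtracted as red squares (36 genes, Bcl2a1d having no match by identifier), with dotted lines at 1.5-fold. Bcl2l1 and Xiap lie left of the lower line by both values, whereas the squares of Birc6, Apaf1, Bcl2l2 and Bax lie between the lines.

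The promoters of the 6 genes past the 1.5-fold threshold are shown for comparison of the genes that were higher with those that were lower. RefSeq promoters on GRCm38.p6 were found for 35 of the 40 genes. The 250 bases before the start nearest to the deposited gene start are printed from 5′ to 3′ on the strand of the gene, with capitals at matches to GGGCGG, the Sp1 motif, on either strand. Bcl2l1 and Xiap have 3 listed promoters each, and the start shown for Xiap lies 8157 bases from the deposited one. The genes that were lower are Bcl2l1 at chr2:152831729-152831978 (minus strand), Xiap at chrX:42067586-42067835 (plus strand) and Bax at chr7:45466899-45467148 (minus strand).
Bcl2l1: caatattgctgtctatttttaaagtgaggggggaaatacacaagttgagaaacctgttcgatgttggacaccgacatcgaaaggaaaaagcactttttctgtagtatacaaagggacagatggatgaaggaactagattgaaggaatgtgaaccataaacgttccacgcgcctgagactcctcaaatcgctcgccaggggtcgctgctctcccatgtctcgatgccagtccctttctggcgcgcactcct
Xiap: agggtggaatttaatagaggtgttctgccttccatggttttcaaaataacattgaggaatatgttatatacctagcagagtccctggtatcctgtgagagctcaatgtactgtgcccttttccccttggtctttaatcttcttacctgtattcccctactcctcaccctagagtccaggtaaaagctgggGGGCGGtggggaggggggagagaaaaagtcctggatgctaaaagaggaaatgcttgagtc
Bax: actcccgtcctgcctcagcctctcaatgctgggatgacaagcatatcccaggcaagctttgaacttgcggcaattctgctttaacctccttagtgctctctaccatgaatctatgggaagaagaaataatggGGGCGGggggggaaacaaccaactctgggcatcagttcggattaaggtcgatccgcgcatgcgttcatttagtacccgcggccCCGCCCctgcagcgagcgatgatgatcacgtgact

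The genes that were higher are Birc6 at chr17:74528045-74528294 (plus strand), Apaf1 at chr10:91082744-91082993 (minus strand) and Bcl2l2 at chr14:54883175-54883424 (plus strand).
Birc6: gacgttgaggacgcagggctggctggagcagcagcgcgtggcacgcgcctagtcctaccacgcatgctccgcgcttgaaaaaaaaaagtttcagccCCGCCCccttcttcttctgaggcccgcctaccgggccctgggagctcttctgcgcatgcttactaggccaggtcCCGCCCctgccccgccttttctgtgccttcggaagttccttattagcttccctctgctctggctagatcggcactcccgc
Apaf1: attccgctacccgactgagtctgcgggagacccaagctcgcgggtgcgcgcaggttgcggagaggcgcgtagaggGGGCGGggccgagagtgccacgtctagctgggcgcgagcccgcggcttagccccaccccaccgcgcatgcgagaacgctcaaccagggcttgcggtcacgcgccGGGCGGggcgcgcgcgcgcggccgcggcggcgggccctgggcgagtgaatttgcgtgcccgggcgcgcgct
Bcl2l2: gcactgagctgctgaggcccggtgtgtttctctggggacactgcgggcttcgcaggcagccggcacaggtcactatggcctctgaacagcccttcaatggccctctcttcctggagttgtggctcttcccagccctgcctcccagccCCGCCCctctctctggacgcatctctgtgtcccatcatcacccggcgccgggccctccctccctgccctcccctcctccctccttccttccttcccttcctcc

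The Sp1 motif was found in all of these windows except that of Bcl2l1, in 56.2% of the 48 promoters of cell-death genes and in 32.7% of all 32851 promoters. The STAT motif TTCNNNGAA was in none of the 48 and in 7.02% of all promoters. The GATA motif AGATAA, on either strand, was in 3 of the 48, those of Bcl2l1, Casp8 and Nlrp3, and in 9.99% of all. The match in Bcl2l1 lies in another of its promoters than the window shown. The E2F motif TTTNGCGC was in 1 of the 48, also of Bcl2l1, and in 1.13% of all, CCAAT in 11 of the 48 and in 33.8% of all, and the NF-kappaB motif in 5 of the 48, of Bbc3, Birc5, Casp4 and Nlrp3, and in 2.13% of all. Among the genes that were lower, the CG dinucleotide occurred 12 times in the window of Bcl2l1, 1 time in that of Xiap and 14 times in that of Bax. Among those that were higher it occurred 18 times for Birc6, 42 times for Apaf1 and 9 times for Bcl2l2, so the groups overlap, and the median of all promoters was 6. These are matches of letters only.

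Of 59 other genes of the same pathways, all were listed, Gsdme under the older name Dfna5, and 52 were kept. Of these 52, 1 was at least 1.5-fold higher and 3 were at least 1.5-fold lower, against 3.42% and 2.89% of all genes kept. These counts are small, and their distance from those shares was not tested. Their median log2 ratio was -0.06. Of the 11 genes around p53, none was 1.5-fold apart, with Cdkn1a at 176 and 163 FPKM and Ccng1 at 65.9 and 71.4 FPKM. Of 13 genes kept of death receptors and their complex, Tnfrsf1b had 116 and 120 FPKM, and Fas had 52.5 and 39.2 FPKM with a log2 ratio of -0.41 (interval -0.52 to -0.30).

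Tnfaip3, which encodes A20, a brake on TNF signalling, was the death-receptor gene past the threshold, with 1709 reads in CHBP- and 944 in CHBP+, or 7.43 and 4.15 FPKM. Its log2 ratio was -0.71 (interval -0.81 to -0.61), and -0.96 with the transcript length trend subtracted. The other 3 genes past the threshold belong to the inflammasome and pyroptosis. Nek7, a kinase that NLRP3 needs for its assembly, had 2731 reads in CHBP- and 618 in CHBP+, or 11.8 and 2.71 FPKM, with a log2 ratio of -1.79 (interval -1.89 to -1.69). With the transcript length trend subtracted it was -1.80, whereas Nlrp3 itself was close to even. Ninj1, which ruptures the plasma membrane in lytic death, had 1503 and 813 reads, or 42.7 and 23.4 FPKM, with a log2 ratio of -0.84 (interval -0.96 to -0.72), and -0.60 with that trend subtracted.

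Naip6, a sensor of bacterial proteins, was higher, with 437 reads in CHBP- and 786 in CHBP+, or 3.55 and 6.47 FPKM, and a log2 ratio of 0.71 (interval 0.58 to 0.85). It was 0.42 with the transcript length trend subtracted. Its paralogs Naip2 and Naip5 had log2 ratios of 0.32 and 0.35, and reads can be shared among these copies. Tnfaip3, Nek7, Ninj1 and Naip6 overlap no other gene that had 10 or more reads.

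**Figure D4:**
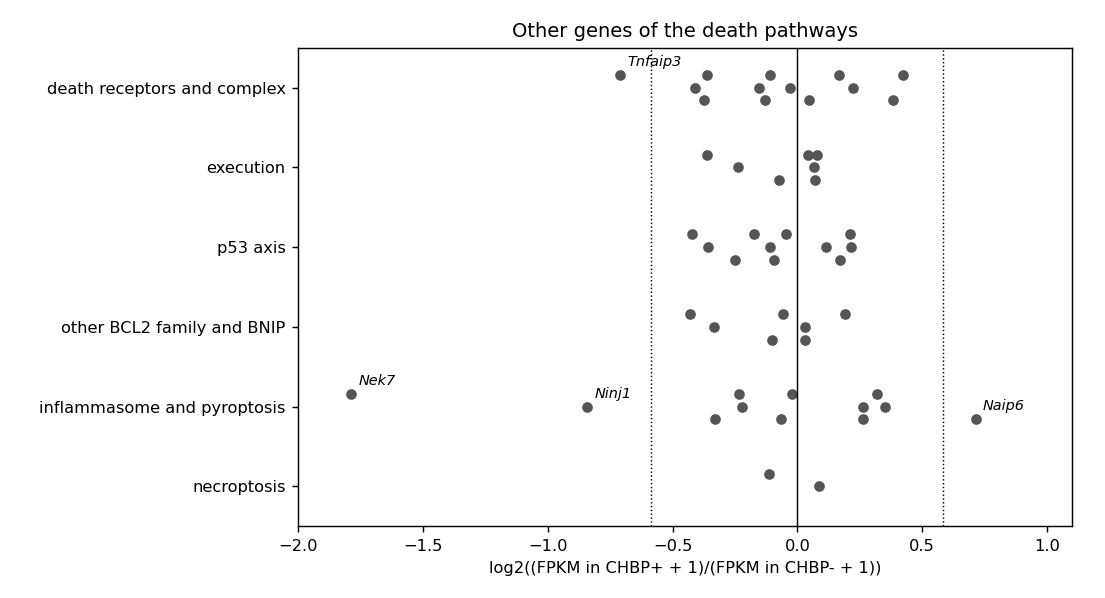
Log2 ratio (CHBP+ over CHBP-) of the 52 other pathway genes kept, 1 point per gene, by list, with dotted lines at 1.5-fold and points spread vertically only for legibility. Nek7 at -1.79 lies furthest from 0, and Ninj1, Tnfaip3 and Naip6 are the other genes outside the lines.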

How the data were processed

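M-MDSC RNA of 2 libraries, 1 per condition, was sequenced as single-end reads of 75 bases. Per the labels, the authors removed adapters, bases under quality 20, reads under 25 bases and ribosomal reads. The methods name TopHat2, HT-seq and mm9, whereas the submitters' processing notes name HISAT2 2.0.4, Cufflinks 2.1.1, mm10 and GRCm38. How strand and multi-mapping reads were handled is not stated. The deposited counts are raw reads per gene, and the deposited FPKM are these counts scaled by the authors to gene length and total. At the deposited coordinates, all 40 genes overlapped RefSeq on GRCm38.p6 by symbol, and 4 of 39 overlapped GENCODE M1 on mm9.

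The log2 ratio, the minimum of 1 FPKM and the 1.5-fold threshold are defined with the results. Implied length is the count divided by FPKM and total. The trend was a least-squares polynomial of degree 3 in log2 length. Every kept member is named with its values, and of the other pathway genes those 1.5-fold apart and the most abundant of some lists. Fas, Aurkb, Cdca8, Incenp and Mki67, and the paralogs, were chosen after their values were seen. The members and lists were chosen with earlier results of these data known. TMM factors came from edgeR 4.0.16 in R 4.3.3, other values from Python 3.11.15, numpy 2.4.6, pandas 2.3.3, scipy 1.17.1 and matplotlib 3.10.9. The calculations were tested on simulated data. Because reads can be copies of 1 molecule, the intervals and the limits for counts of 0 hold only counting error.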

Additional observations from a re-analysis of the deposited data

How the results depend on the processing

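No paired analysis was possible because each condition had a single library, and for the same reason no replicate could be left out. No cell-death gene that was 1.5-fold apart in one direction was so in the other under any alternative run. Against 374 genes at least 1.5-fold higher and 316 lower among all genes kept, a pseudocount of 0.1 gave 665 and 571, CPM gave 609 higher, a minimum of 5 FPKM gave 218 and 209, and a threshold of 2-fold gave 85 and 46. Subtracting the implied length trend left 168 lower, and the transcript length trend, an alternative chosen after seeing the data, left 229 higher and 111 lower. The share of calls that were higher was 54.2%, 65.0% with the implied and 67.4% with the transcript length trend subtracted, 62.2% with median centring, 60.7% with CPM and 64.9% at 2-fold. Of the cell-death genes, 0 were higher with either trend subtracted, and 0 were higher and 0 lower at 2-fold. The added 1 decides the latter, since scaled reads alone gave 0.406 for Bcl2l1, 0.499 for Xiap and 2.16 for Birc6. A minimum of 5 FPKM left out Bcl2l1 and Bcl2l2. The median of the lytic genes became 0.052 with the implied length trend subtracted and 0.075 with the transcript length trend subtracted. That of the anti-apoptotic side became 0.092 with the transcript length trend subtracted and 0.098 without genes that overlap others. That of the pro-apoptotic side, -0.12, became -0.24 at a minimum of 5 FPKM, -0.050 without overlapping genes and -0.039 with the transcript length trend subtracted. The cause of these shifts was not tested. Of the 37 genes, 17 moved outside their counting interval with the implied length trend subtracted, 6 with a pseudocount of 0.1, 6 with CPM, and 0 with TMM or median centring. Of the 36 with a transcript length, 16 did.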
